A study of Mus musculus with 42 samples.

Results

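The contralateral carotid artery of mice that underwent partial carotid ligation carries raised flow, and its intimal RNA at 48 hr is compared here with that of sham-operated arteries, which carry normal flow. The comparison takes the 3 high-flow pools and the 3 sham pools of untreated mice, 6 of the 42 samples of the series, chosen by their labels. In the ligated mice branches of the left carotid (the internal and external carotid and the occipital artery) were tied off and the superior thyroid artery was spared, which lowers flow on the left and sends more blood through the opposite carotid. In sham mice the carotid was dissected and encircled with suture in the same way but nothing was tied. The methods do not describe dissection of the contralateral artery, so a change of flow and a difference in surgical handling of the vessel cannot be told apart. The high-flow artery was also the right carotid of a mouse with a ligated left carotid, while sham mice had no ligation. Flow therefore cannot be told apart from effects of the ligation elsewhere in the mouse. The same holds for the side of the vessel if sham arteries were taken from the left. Sham pools came from other mice than high-flow pools. All were male C57BL/6J (Jax) mice with no treatment, 6 to 7 weeks old, and each pool is listed with RNA of 3 to 5 arterial flushes, in which the lumen was rinsed and then flushed with Trizol to take up the intima. For the low-flow and high-flow pools the paper states a narrower range of flushes within this. The pools are called high-flow pool a, b and c and sham pool a, b and c, in the order of the letters that the count table gives them. A further 3 low-flow pools from the ligated side of the same experiment (low-flow pool a, b and c) are given beside them where they show how far a gene can move.

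Endothelial cells line the intima and read the drag of flowing blood. Steady laminar shear acts through the kinases MEK5 and ERK5 on MEF2 transcription factors, which raise the transcription factors Klf2 and Klf4, and these in turn keep the endothelium anticoagulant, dilated and poor in leukocyte adhesion. High flow in an artery is also known to start outward remodelling, in which the vessel widens until shear returns toward its former level.

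RNA was measured in expected counts per gene, which estimate the reads of each gene, and levels are given as FPKM, in which counts are scaled to transcript length and to the total of the pool. The 6 pools held 4064477 to 6091233 counts on genes. Across the 11030 genes tested, log2(FPKM + 1) had a Pearson correlation of 0.965 to 0.988 between pools of the same group and of 0.962 to 0.987 between a high-flow and a sham pool. Endothelial markers defined the samples: Pecam1 was at 1601, 2129 and 2068 FPKM in high-flow pools a, b and c and at 1798, 2204 and 1483 in sham pools a, b and c, and the endothelial list of 14 genes had a median log2 fold change of -0.01 over the 13 members tested. Kdr, a VEGF receptor on the same list, did not pass 1.2 FPKM and was too low to be tested. Several pools stood apart from the others of their group in markers of other cells. Sham pool b had 2694 FPKM summed over 22 interferon-stimulated genes, against 810 to 1035 in the other 5 pools, and 81.2 FPKM over 11 markers of T, B and NK cells, against 7.56 to 16.5. Sham pool c had the highest sums of macrophage, smooth muscle and cell cycle genes, and high-flow pool c the highest sums of fat cell genes. High-flow pool a had 56.6 FPKM over 11 skeletal muscle markers, against 3.04 to 5.50 in the other 5 pools, with Acta1 at 20.8 FPKM. No thyroid or parathyroid marker was tested, and their sum did not pass 2.66 FPKM in any of the 6 pools. In RNA of a whole flush, fewer cells of a type and less RNA per cell cannot be told apart.

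Between high flow and sham, edgeR gave 0 of 11030 genes an adjusted p under 0.05 (0% called). The smallest adjusted p was 0.31. Before adjustment p was under 0.05 for 868 genes (7.87%), with 391 (3.54%) above sham and 477 (4.32%) below. limma-voom also called 0 genes, with 745 at an unadjusted p under 0.05. DESeq2 called 101 of 12197 genes (0.828%), 43 of them higher (0.353%) and 58 lower (0.476%), and edgeR gave the same sign to all 89 of these that it tested. In 91 of the 101 the FPKM of the 3 high-flow pools lay entirely on one side of those of the 3 sham pools, as in 12.8% of all genes tested (12.6% on the TMM scale). Both tools and the FPKM use the same counts, so neither the shared sign nor the lack of overlap is separate support for these calls. The median absolute log2 fold change was 0.17, and for 8568 genes (77.7%) the 95% interval of edgeR's fold change lay between -1 and 1 on the log2 scale. By comparison, edgeR called 4499 of 11164 genes (40.3%) between low flow and sham, 20.6% higher and 19.7% lower at low flow, and 5195 of 11236 (46.2%) between low flow and high flow, 23.6% higher and 22.6% lower.

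Single pools bore on the number of calls. Leaving out sham pool b, edgeR called 78 of 11298 genes (0.69%), 73 of them lower (0.646%), and leaving out any other single pool it called 0. The 5 higher genes in that fit (0.0443%) were Ptprr, Serpina1b, Serpina1d, Tspan11 and Fndc1. With DESeq2 the number ran from 23 without high-flow pool c and 24 without sham pool c to 243 without sham pool b. Without sham pool c, 22 of the 24 genes called by DESeq2 were higher and 2 lower, and without high-flow pool a 57 of 64 were higher and 7 lower. In the following paragraphs "higher" and "lower" describe the pools, and a gene is called only where the tool is named.

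**Figure D1:**
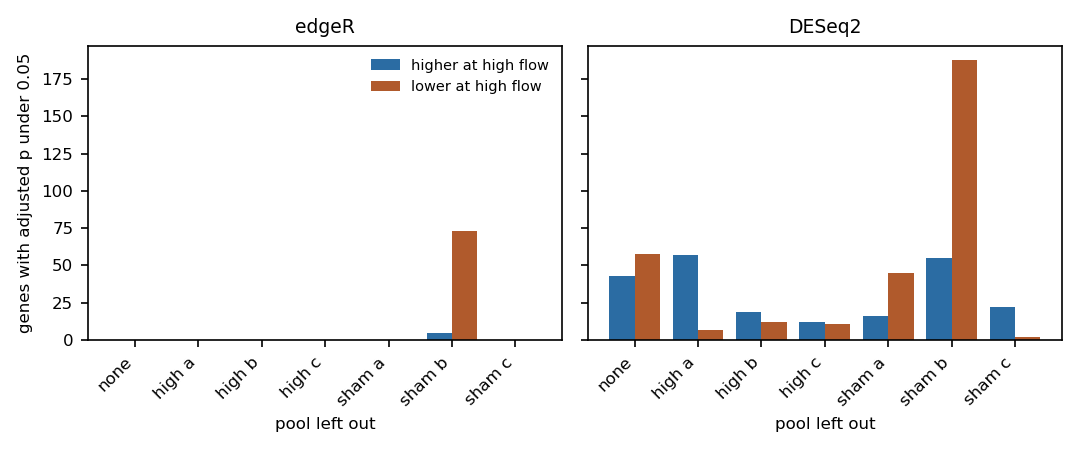
Number of genes with an adjusted p under 0.05 between high flow and sham (vertical axis) for all 6 pools and with each pool left out in turn (horizontal axis), by edgeR (left) and DESeq2 (right), higher at high flow in blue and lower in brown. edgeR made calls only without sham pool b, where 73 of 78 were lower, and DESeq2 called 101 genes with all pools and 243 without sham pool b.

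The transcription factors Klf2 and Klf4, the best known reporters of laminar shear, were higher at high flow. Klf2, on chromosome 8 of mm9 from 74842932 to 74845555, was at 59.2, 43.7 and 61.8 FPKM in high-flow pools a, b and c and at 33.6, 37.7 and 28.0 in sham pools a, b and c. The lowest high-flow pool, b, lay above the highest sham pool, also b, so the groups did not overlap. edgeR gave a log2 fold change of 0.79 ± 0.19 (SE, 3 pools against 3, adjusted p = 0.324), and over 11 alternative settings the adjusted p ran from 0.0361 to 0.72, with DESeq2 the only one under 0.05. Klf4, on chromosome 4 of mm9 from 55540013 to 55545347, was at 66.2, 55.1 and 56.6 FPKM in the high-flow pools and at 40.1, 33.3 and 30.6 in the sham pools. Again every high-flow pool was above every sham pool, with a log2 fold change of 0.84 ± 0.18 (SE, edgeR adjusted p = 0.31) and an adjusted p of 0.0082 to 0.712 over the alternatives, the lowest from DESeq2. On the ligated side both genes were called lower by edgeR. In low-flow pools a, b and c Klf2 was at 1.06, 0.539 and 4.09 FPKM and Klf4 at 1.22, 0.777 and 4.72, and edgeR gave log2 fold changes against sham of -3.52 (adjusted p = 0.00108) for Klf2 and -3.40 (adjusted p = 0.00108) for Klf4. Between low and high flow the log2 fold change was -4.28 (adjusted p = 4.97e-06) for Klf2 and -4.21 (adjusted p = 4.8e-06) for Klf4. FPKM of low-flow pools and edgeR's fold changes are on different scales, since the TMM scaling of edgeR moved the median gene by 0.76 (log2) against sham, while between high flow and sham the 2 scales differed by 0.05.

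**Figure D2:**
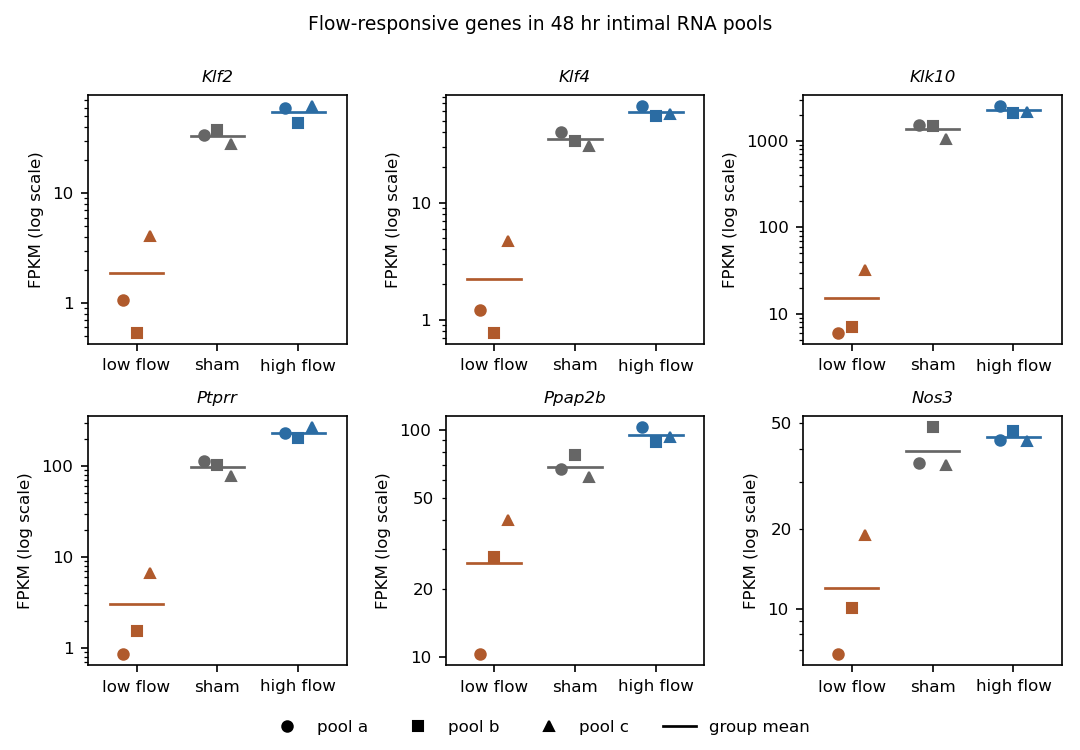
FPKM on a log axis in each low-flow, sham and high-flow pool at 48 hr (points, shaped by pool letter) with the group mean (line), for 6 flow-responsive genes. For Klf2, Klf4, Klk10, Ptprr and Ppap2b all 3 high-flow pools lie above the 3 sham pools and all low-flow pools below them, while for Nos3 sham pool b is above the high-flow pools.

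Klf2 and Klk10, a kallikrein-related secreted protease that also moves with flow, are shown with their promoters because each holds a match to the MEF2 consensus, the element through which MEF2 factors act on Klf2. The sequences are those of RefSeq on GRCm38.p6, from 250 bases before to 50 after the gene start, 5′ to 3′ on the plus strand, on which both genes lie. Klf2 is at chr8:72318812-72319111 and Klk10 at chr7:43780804-43781103, and capitals mark the match.
Klf2: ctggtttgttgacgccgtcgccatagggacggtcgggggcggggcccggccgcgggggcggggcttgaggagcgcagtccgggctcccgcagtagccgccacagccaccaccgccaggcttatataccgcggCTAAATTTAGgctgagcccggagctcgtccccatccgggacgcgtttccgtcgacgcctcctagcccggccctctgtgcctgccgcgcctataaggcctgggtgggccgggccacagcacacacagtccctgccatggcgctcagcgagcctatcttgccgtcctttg
Klk10: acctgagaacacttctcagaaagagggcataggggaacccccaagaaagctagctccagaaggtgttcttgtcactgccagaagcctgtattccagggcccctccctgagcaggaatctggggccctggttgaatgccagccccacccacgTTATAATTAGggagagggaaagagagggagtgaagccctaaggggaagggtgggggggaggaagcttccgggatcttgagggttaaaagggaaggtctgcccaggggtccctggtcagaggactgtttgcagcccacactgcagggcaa
The match begins 118 bases before the gene start in Klf2 and 99 bases before it in Klk10, and the consensus, searched on both strands, was found in 3.19% of 32851 promoters and in at least 1 promoter of 3.70% of the 27025 genes they belong to. Of the 20 genes of the list of flow transcription factors and their targets, 17 had a promoter in the table, and 3 of these (Klf2, Klk10 and Mef2a) held the consensus. The letters CACCC, the core bound by Krüppel-like factors, stood on either strand in a promoter of 11 of the 17 genes, against 59.8% of all genes, and TGANTCA, the AP-1 element, in 2 of the 17, against 8.97%. Among the 10 genes higher at high flow with the smallest p, described further on, 8 had CACCC in a promoter, 2 had TGANTCA and 0 the MEF2 consensus, and of the 7 of the 10 lower genes that have a promoter there 1 had CACCC (Inpp4b), 1 TGANTCA (Cxcl10) and 0 the MEF2 consensus. A match of letters is a description of the window and no test of binding.

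Klk10, on chromosome 7 of mm9 from 51036424 to 51040780, was among the most abundant transcripts described here. It was at 2516, 2090.1 and 2168 FPKM in the high-flow pools and 1519.9, 1503 and 1062 in the sham pools, without overlap. edgeR gave a log2 fold change of 0.79 ± 0.19 (SE, adjusted p = 0.324), and the alternatives gave an adjusted p of 0.00901 to 0.712. In the low-flow pools Klk10 was at 6.08, 7.07 and 32.6 FPKM, and its log2 fold change there was -6.00 (adjusted p = 0.000974) against sham. The gene with the smallest p by DESeq2 was Ptprr, on chromosome 10 of mm9 from 115455269 to 115711988, which encodes a receptor-type tyrosine phosphatase that acts on MAP kinases. Ptprr was at 229, 205 and 266 FPKM in the high-flow pools and at 113, 104 and 78.0 in the sham pools, and every high-flow pool lay far above every sham pool. The log2 fold change was 1.31 ± 0.19 (SE, edgeR adjusted p = 0.31), 1.19 to 1.42 with any 1 pool left out. DESeq2 gave an adjusted p of 5.37e-08, the lowest of the 11 alternatives, of which 3 were under 0.05 and the highest was 0.712. At low flow Ptprr was at 0.871, 1.52 and 6.68 FPKM, and it differed by -5.81 (adjusted p = 4.73e-06) between low and high flow.

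Other members of the flow list varied in how far they departed from sham. Of 18 tested, 13 had a log2 fold change above 0 and 5 below, with a median of 0.20, against 0.01 over all genes tested. In 5 the high-flow pools lay wholly above sham and in 2 wholly below, where 4.29% of all tested genes lay above and 8.52% below. With counts scaled by TMM in place of FPKM these shares over all genes were 6.27% and 6.35%, and the list had 5 and 2. Besides Klf2, Klf4 and Klk10, the 5 included Ppap2b, a lipid phosphatase that breaks down lysophosphatidic acid, at 103, 88.9 and 92.9 FPKM in the high-flow and 67.5, 77.7 and 61.9 in the sham pools, with a log2 fold change of 0.52 ± 0.17 (SE, edgeR adjusted p = 0.407). The fifth was Mef2a, at 5.08, 4.64 and 5.25 against 3.91, 2.62 and 4.58 FPKM, which overlapped on the TMM scale. Nos3, the endothelial nitric oxide synthase, was at 43.3, 46.6 and 42.9 FPKM in the high-flow pools and 35.3, 48.2 and 34.6 in the sham pools. The groups overlapped through sham pool b, and the 95% interval of its log2 fold change by edgeR was -0.15 to 0.61. Thbd, which encodes the anticoagulant thrombomodulin, had an interval of -0.07 to 0.83, Aqp1, a water channel, -0.31 to 1.03, and Klf6, another Krüppel-like factor, -0.19 to 0.71. The kinases upstream of MEF2 had intervals of -0.59 to 0.31 for Map2k5 (MEK5) and -0.39 to 0.57 for Mapk7 (ERK5). Those of Mef2c (-0.44 to 0.21), Mef2d (-1.55 to 0.62), Nfe2l2 (-0.19 to 0.49), Tek (-0.33 to 0.66) and Cyp1b1 (-0.27 to 0.61) also spanned 0. Sema3g was lower in all 3 high-flow pools, with an interval of -1.26 to 0.15, and the other member below sham was Gja4, described further on. Cyp1a1 and Ptgds, with 4 counts or fewer in either group, were not tested.

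Among the 13 Krüppel-like factors tested, 12 had a log2 fold change above 0 with a median of 0.32, which was 0.19 without high-flow pool a. Klf2 and Klf4, 2 of the 13, lay wholly above sham in FPKM (4.29% over all genes), and on the TMM scale 4 did (6.27%). Klf13 was at 153, 161 and 186 FPKM in the high-flow and 145, 154 and 115 in the sham pools (interval of the log2 fold change -0.04 to 0.70), and Klf11 had an interval of -0.12 to 1.35. Of the 19 shear sensors and transducers tested, 1 lay wholly above sham in FPKM (4.29% over all genes) and 4 wholly below (8.52%). On the TMM scale these were 1 (6.27%) and 2 (6.35%), and the list's median was 0.13. Trpv4, a calcium channel, was higher in all high-flow pools, at 47.3, 54.2 and 53.4 against 44.0, 41.5 and 25.9 FPKM (log2 fold change 0.53 ± 0.20, SE, edgeR adjusted p = 0.506). Plxnd1, a semaphorin receptor that also senses shear, was lower in all 3, at 4.79, 5.83 and 6.13 against 9.36, 6.88 and 10.1 FPKM (-0.61 ± 0.19, adjusted p = 0.385). Cav1, the coat protein of caveolae, was lower in all 3 with an interval of -0.61 to 0.08, and the channel Piezo1, listed under the older symbol Fam38a, had an interval of -0.64 to 0.34 around overlapping groups.

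Early response and BMP target genes were higher at high flow in part. Dusp1, a phosphatase that switches off MAP kinases, was at 28.3, 25.4 and 23.3 FPKM in the high-flow pools and at 16.0, 12.7 and 16.5 in the sham pools, with a log2 fold change of 0.82 ± 0.19 (SE, edgeR adjusted p = 0.324) and an adjusted p of 0.0545 to 0.712 over the alternatives. The nuclear receptor Nr4a1 was at 8.97, 7.82 and 9.93 against 5.60, 5.81 and 6.77 FPKM, again without overlap (0.60 ± 0.20, adjusted p = 0.424). In contrast Myc, which drives growth and the cell cycle, was at 5.41, 7.94 and 5.86 FPKM in the high-flow and 17.4, 7.31 and 19.4 in the sham pools, where sham pool b fell among the high-flow pools. The list of immediate early genes had 2 of 16 tested members wholly above sham, where 4.29% of all genes were, and 0 below in FPKM but 1 on the TMM scale. Id1, a target of BMP signalling in endothelium, was at 296, 223 and 236 against 145, 165 and 182 FPKM without overlap (0.68 ± 0.20, adjusted p = 0.362), while its relative Id3 overlapped (interval -0.28 to 0.60). Hes1, a Notch target, was at 13.3, 13.7 and 10.8 against 7.65, 9.41 and 6.27 FPKM (0.76 ± 0.22, adjusted p = 0.362). Bmp6 was lower in all 3 high-flow pools, at 37.6, 47.5 and 44.5 against 68.6, 74.8 and 51.1 FPKM, with a log2 fold change of -0.53 ± 0.17 (SE, edgeR adjusted p = 0.403).

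Several genes of vessel growth, arterial identity and constriction were lower at high flow. Gja4, the gap junction protein connexin 37, was at 412, 328 and 279.8 FPKM in the high-flow pools and 517, 604 and 799 in the sham pools, without overlap. Its log2 fold change was -0.86 ± 0.24 (SE, edgeR adjusted p = 0.362), and the adjusted p over the alternatives was 0.0436 to 0.748, with DESeq2 alone under 0.05. Pdgfb, on chromosome 15 of mm9 from 79826330 to 79845238, a growth factor that endothelium sends to mural cells, was at 3.19, 4.99 and 4.17 FPKM in the high-flow pools against 8.30, 8.70 and 8.79 in the sham pools. The sham pools lay close together and every high-flow pool lay well below them. edgeR gave -1.01 ± 0.19 (SE, adjusted p = 0.31), -1.14 to -0.89 with 1 pool left out, and the alternatives gave an adjusted p of 0.0485 to 0.712. Edn1, which encodes the vasoconstrictor endothelin-1, was at 93.0, 119 and 78.4 against 177, 153 and 147 FPKM (-0.66 ± 0.19, adjusted p = 0.362). Angpt2, an antagonist of the Tie2 receptor that loosens the endothelium, was at 0.705, 1.48 and 1.23 against 2.64, 2.43 and 6.50 FPKM (-1.71 ± 0.47, adjusted p = 0.355, and -1.06 without sham pool c). The Notch ligand Dll4 was at 1.70, 2.23 and 1.47 against 4.37, 2.45 and 10.7 FPKM, with -1.66 ± 0.50 in all 6 pools and -0.84 without sham pool c, and edgeR called it lower without sham pool b. Edn1, Angpt2 and Dll4 were all free of overlap.

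On the low-flow side edgeR called the same 5 genes higher than sham. edgeR gave log2 fold changes of low flow against sham of 2.26 (adjusted p = 0.0153) for Gja4, 0.90 (adjusted p = 0.0189) for Pdgfb, 1.74 (adjusted p = 0.00263) for Edn1, 6.02 (adjusted p = 0.00101) for Angpt2 and 1.69 (adjusted p = 0.0271) for Dll4. In this comparison the log2 ratio in FPKM minus edgeR's fold change had a median of -0.76. The smallest of the 5 changes, that of Pdgfb, thus depends most on the TMM scaling. Angpt2 covered the widest range of these, from 0.705, 1.48 and 1.23 FPKM at high flow to 104, 182 and 147 at low flow. Both comparisons share the sham pools, so their directions are not independent. Ptgs2, the inducible cyclooxygenase, was lower in all 3 high-flow pools (-0.89 ± 0.34, edgeR adjusted p = 0.526), and so was the adhesion-modulating sialomucin Emcn, at 196, 184 and 185 against 279, 254 and 447 FPKM (-0.75 ± 0.24, adjusted p = 0.413, and -0.42 without sham pool c). Vegfa went the other way, at 1.27, 0.990 and 1.89 against 0.376, 0.781 and 0.845 FPKM, with 63 counts in the high-flow and 28 in the sham pools. Over the whole lists, 4 of 19 tested Notch and arterial genes lay wholly below sham and 1 above, 5 of 15 angiogenic genes below and 1 above, and 2 of 14 vasoactive genes below and 0 above, beside 8.52% below and 4.29% above over all genes. On the TMM scale the angiogenic genes below numbered 4, the other counts of these lists were as in FPKM, and the shares over all genes were 6.35% and 6.27%. The medians were -0.08, -0.28 and 0.09 in that order, and -0.05, -0.09 and 0.01 without sham pool c. Notch1, Jag1, Efnb2, Gja5 and Sox17 overlapped, with intervals of -0.29 to 0.49, -0.17 to 0.90, -0.67 to 0.26, -0.19 to 0.63 and -0.44 to 0.37.

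**Figure D3:**
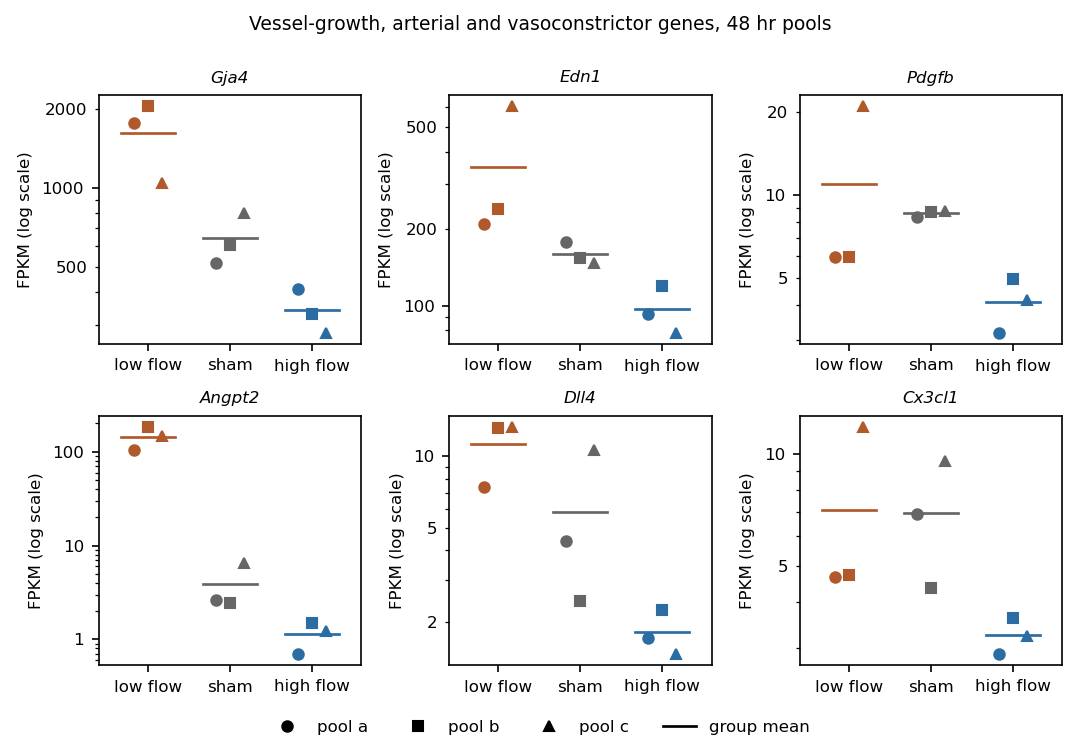
FPKM on a log axis in each low-flow, sham and high-flow pool at 48 hr (points, shaped by pool letter) with the group mean (line), for 6 genes of vessel growth, arterial identity, constriction and leukocyte attraction. In every panel the 3 high-flow pools lie below the 3 sham pools, and Angpt2 spans the widest range, from 0.705 FPKM at high flow to 182 at low flow.

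Matrix and coagulation genes gave single examples. Mmp14, a membrane-bound collagenase, was at 5.07, 5.48 and 5.12 against 8.21, 7.52 and 16.3 FPKM (-1.0 ± 0.31, edgeR adjusted p = 0.385), with sham pool c the highest. Fn1, which encodes fibronectin, was at 26.2, 35.3 and 34.5 against 40.3, 46.1 and 46.6 FPKM, also without overlap (-0.42 ± 0.17, adjusted p = 0.545). Timp3, an inhibitor of metalloproteinases, had its lowest high-flow pool within the sham range in FPKM, at 303, 501 and 492 against 316, 317 and 218. Entpd1, the ectonucleotidase CD39 that removes ATP and ADP from the vessel surface, was at 53.6, 67.5 and 68.5 FPKM against 42.5, 45.9 and 34.8 and was called by DESeq2 (edgeR 0.67 ± 0.16, adjusted p = 0.324, 0.0165 to 0.72 over the alternatives). Plat, tissue plasminogen activator, was at 92.3, 89.0 and 78.8 against 64.8, 67.6 and 67.2 FPKM (0.44 ± 0.16, adjusted p = 0.489). Of 15 coagulation genes tested, 3 lay wholly above sham (4.29% over all genes) and 1, F8, below (8.52%).

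Chemokines and inflammatory endothelial genes were lower at high flow in part. Of 19 tested, 7 lay wholly below sham and 1 above, against the 8.52% and 4.29% of all genes, and on the TMM scale 4 and 1. Cxcl10, on chromosome 5 of mm9 from 92775664 to 92777915, an interferon-induced attractant of T cells, was at 0, 0.357 and 0.479 FPKM in the high-flow pools and 5.93, 7.23 and 4.01 in the sham pools, from 4 counts in all against 68. edgeR gave an adjusted p of 0.31, and the alternatives 0.0051 to 0.712, of which 3 of 11 were under 0.05. The monocyte attractant Ccl7 was at 0.359, 4.52 and 1.35 against 11.6, 4.90 and 32.6 FPKM, a narrow gap between high-flow pool b and sham pool b. Cx3cl1, fractalkine, was at 2.90, 3.61 and 3.23 against 6.88, 4.35 and 9.56 FPKM (-1.05 ± 0.30, edgeR adjusted p = 0.362). Cxcl12, which retains CXCR4-bearing cells, was at 36.0, 60.2 and 39.9 against 89.2, 61.7 and 105 FPKM (-0.87 ± 0.25, adjusted p = 0.362), and the T cell attractant Ccl5 at 3.64, 3.39 and 0.569 against 6.73, 16.5 and 9.52. The abundant adhesion molecules lay close to sham. Vcam1 was at 639, 730.2 and 620.4 FPKM in the high-flow and 752, 734 and 758 in the sham pools (interval of the log2 fold change -0.47 to 0.22), and Icam1 had an interval of -0.60 to 0.17. Both lay below sham in FPKM by a narrow gap and overlapped on the TMM scale. Icam2, which resting endothelium carries, lay wholly above sham with an interval of -0.08 to 0.68. Sele, E-selectin, was at 1.19, 4.45 and 2.47 against 9.08, 3.02 and 16.2 FPKM and overlapped through sham pool b. Without that pool edgeR called Cxcl10, Cx3cl1 and Sele lower, where it called 0.646% of all genes lower. With all pools it called none of them.

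Macrophage markers were lower in the same pools. Summed over 15 markers in the table they made 67.1, 149 and 173 FPKM in the high-flow pools and 220.4, 219 and 672 in the sham pools. All 3 high-flow sums were below the sham sums, and sham pool c stood far above the other 5 pools. Of the 11 markers tested 5 lay wholly below sham, where 8.52% of all genes did, and 0 above, on the TMM scale also, and their median log2 fold change was -1.35, or -0.51 without sham pool c. Lyz2, the lysozyme of myeloid cells, was at 33.4, 90.6 and 102 against 139, 134 and 494 FPKM (-1.75 ± 0.55, edgeR adjusted p = 0.394, -0.80 without sham pool c), and Aif1 at 1.61, 1.80 and 3.01 against 5.92, 7.74 and 13.2 (-2.02 ± 0.43, adjusted p = 0.31). Cd68 was at 2.99, 4.18 and 5.35 against 10.7, 6.26 and 29.2 FPKM and Csf1r, the receptor that keeps macrophages alive, at 0.692, 1.36 and 1.12 against 1.40, 1.78 and 5.11. None of the 11 was called by DESeq2 with 6 pools. Several leukocyte genes that the lists do not hold were, and are named here after their values were seen: Coro1a, an actin regulator of blood cells, was at 2.42, 6.33 and 6.22 against 8.32, 26.1 and 35.7 FPKM (DESeq2 adjusted p = 0.0051), Laptm5 at 2.29, 7.43 and 8.21 against 10.2, 25.2 and 36.1 (0.00828) and Cd53 at 2.38, 4.38 and 5.31 against 8.83, 11.5 and 20.7 (0.00522). edgeR's adjusted p for these 3 was 0.324, 0.328 and 0.31, and over the alternatives it ran from 0.0051 to 0.712, 0.00828 to 0.712 and 0.00522 to 0.712. The part of such cells in the lower chemokine levels was not tested.

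Cell cycle genes were lower in all 21 members tested, with a median log2 fold change of -1.25. In 19 the unadjusted p was under 0.05, where 4.32% of all genes were lower at that p, and 9 lay wholly below sham in FPKM (8.52% over all genes) and 9 on the TMM scale (6.35%). The sums over 24 genes were 182, 238 and 198 FPKM in the high-flow pools and 348, 236 and 746 in the sham pools, so sham pool b lay within the high-flow range and sham pool c far above the rest. Ccnb2, which encodes cyclin B2 of mitosis, was at 2.86, 2.82 and 3.00 FPKM against 22.9, 5.81 and 68.8 (log2 fold change -3.47 ± 0.77, SE, edgeR adjusted p = 0.324, 0.0192 to 0.712 over the alternatives). The mitotic kinesin Kif2c was at 0.439, 0.184 and 0.577 against 3.28, 1.10 and 11 FPKM (-3.70 ± 0.85, adjusted p = 0.324, 0.00167 to 0.712), and Top2a, a topoisomerase of dividing cells, at 0.787, 2.62 and 1.61 against 6.92, 2.76 and 19.8 (-2.52 ± 0.66, adjusted p = 0.333). Without sham pool b edgeR called 8 genes of the list, all lower, where it called 0.646% of all genes lower, and without sham pool c the log2 fold changes of Ccnb2, Kif2c and Top2a were -2.24, -2.41 and -1.44, the list's median was -0.48, with 6 members lower at an unadjusted p under 0.05, where 3.16% of all genes were in that fit. Sham pool c also had the highest sums of macrophage and smooth muscle markers, and the part of these cells was not tested.

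**Figure D4:**
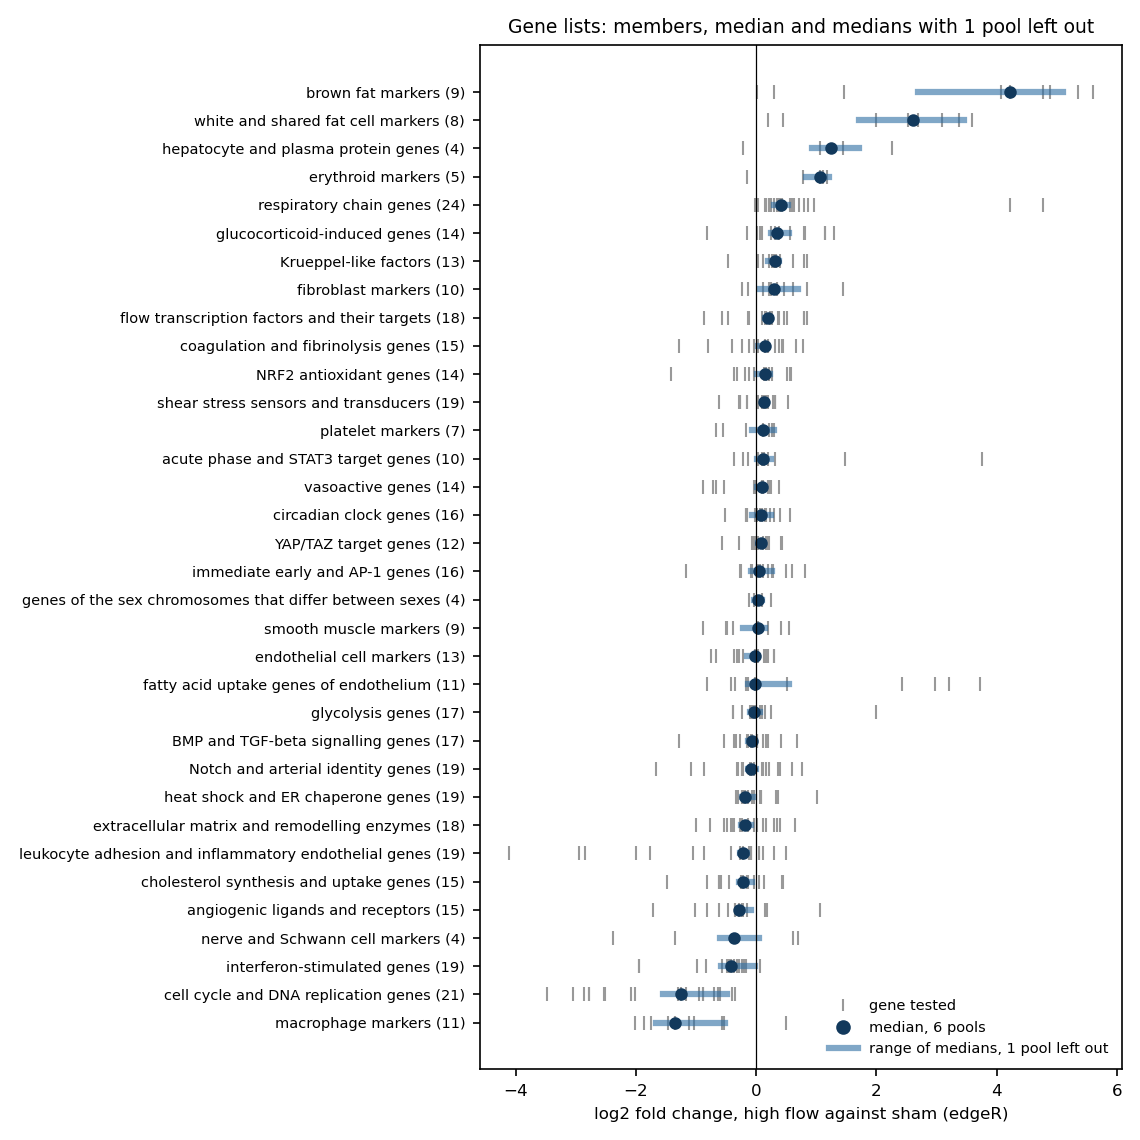
log2 fold change of high flow against sham (horizontal axis) for the members of each gene list (ticks; the number tested in brackets), with the median over 6 pools (dark point) and the range of medians with each pool left out (blue bar), for lists with at least 4 members tested. Brown fat markers have the highest median, 4.23, and macrophage markers the lowest, -1.35, while most endothelial lists lie close to 0.

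Interferon-stimulated genes differed mainly by 1 pool. Over 19 tested the median log2 fold change was -0.42, and without sham pool b it was -0.02. Gbp2, a guanylate-binding protein induced by interferon-gamma, was at 63.3, 91.1 and 107 FPKM in the high-flow pools and 124, 845 and 92.4 in the sham pools. The groups overlapped, with sham pool b far above the other 5 pools. T cell genes stood out in the same pool: Cd8a was at 0.478, 11.1 and 1.10 FPKM in the sham pools and at 0.315, 1.65 and 1.11 in the high-flow pools. Oas1a alone of the 19 tested lay wholly below sham, where 8.52% of all genes did, at 5.87, 6.09 and 7.01 against 10.3, 13.8 and 10.9 FPKM (-0.83 ± 0.19, edgeR adjusted p = 0.324).

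The metallothioneins Mt1 and Mt2, which bind zinc and copper and are raised by metals and glucocorticoids, were higher at high flow. Mt1, on chromosome 8 of mm9 from 96702989 to 96704225, was at 700.0, 616 and 688 FPKM in the high-flow pools and 314, 243 and 379 in the sham pools. The lowest high-flow pool lay far above the highest sham pool, with a log2 fold change of 1.15 ± 0.21 (SE, edgeR adjusted p = 0.31) and an adjusted p of 0.000368 to 0.712 over the alternatives, 2 of 11 under 0.05. Mt2 was at 142, 122 and 86.0 against 44.8, 37.0 and 66.1 FPKM (1.29 ± 0.28, adjusted p = 0.31, 0.01 to 0.712 over the alternatives). Cdkn1a, the cell cycle inhibitor p21, was at 29.0, 25.1 and 19.5 against 14.6, 7.35 and 12.6 FPKM (1.14 ± 0.27, adjusted p = 0.324, 0.0272 to 0.712). Of 14 glucocorticoid-induced genes tested, 4 lay wholly above sham in FPKM (4.29% over all genes) and 6 on the TMM scale (6.27%), with 0 below in either, and the median was 0.35. The 4 in FPKM were Mt1, Mt2, Cdkn1a and Dusp1. Tsc22d3, which encodes the glucocorticoid-induced leucine zipper, was at 772, 589 and 838 against 397, 732 and 426 FPKM and overlapped through sham pool b, and Fkbp5, another direct target of the glucocorticoid receptor, had an interval of -0.75 to 0.89. In the low-flow pools Mt1 was at 42.0, 68.7 and 135 FPKM.

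The protease inhibitors of the Serpina1 family, better known as plasma proteins from liver, were present in the intima and higher at high flow. Serpina1b was at 34.9, 30.5 and 42.4 FPKM against 5.69, 14.1 and 3.81 (log2 fold change 2.26 ± 0.38, SE, edgeR adjusted p = 0.31, 6.51e-06 to 0.712 over the alternatives). Serpina1d was at 73.9, 61.4 and 82.9 against 25.3, 46.2 and 12.8 FPKM (1.45 ± 0.36, adjusted p = 0.324) and Serpina1e at 160.1, 128 and 159 against 74.1, 115 and 36.8 (1.06 ± 0.33, adjusted p = 0.385). These are near-identical copies, between which counts may be divided wrongly, so they are read as 1 result. Alb, albumin, did not pass 0.0864 FPKM in any of the 6 pools. At low flow Serpina1b was at 0.0230, 0.176 and 0.295 FPKM.

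Besides those already named, the 10 genes with the smallest p in each direction among those without overlap, all at an edgeR adjusted p of 0.31, held a mixed set. Arl4a, a small GTPase, was at 47.0, 38.7 and 59.9 FPKM in the high-flow and 25.6, 26.7 and 27.2 in the sham pools (0.93 ± 0.19, 0.00522 to 0.712 over the alternatives), and the tetraspanin Tspan11 at 18.2, 18.1 and 16.1 against 9.86, 11.3 and 6.35 (0.99 ± 0.20, 0.00901 to 0.712). Both were low on the ligated side, at 4.98, 2.88 and 9.12 and 0.181, 0.388 and 0.648 FPKM. On the lower side, Neurl3, a ubiquitin ligase, was at 0.866, 0.875 and 0.813 against 3.40, 2.02 and 4.54 FPKM (-1.92 ± 0.38, 0.0292 to 0.712). Slfn1 and Irf8, both of blood cells, were at 0.548, 0.383 and 0.129 against 1.52, 2.87 and 3.47 FPKM and at 0.262, 0.184 and 0.411 against 0.884, 1.83 and 2.52. Amd2, of polyamine synthesis, was at 5.01, 5.27 and 5.43 against 10.2, 8.63 and 10.3 FPKM (-0.85 ± 0.17), and Inpp4b, Bard1 and Disp2 were lower from 48, 36 and 38 counts in the sham pools to 7, 7 and 9 in the high-flow pools. Fam167b, among the largest falls by DESeq2, was too low for edgeR's filter, at 0.587, 0.615 and 0 against 6.22, 1.54 and 19.97 FPKM (DESeq2 adjusted p = 0.00647).

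A further set, named after their values were seen, was called by DESeq2 as higher at high flow and is given with its level at low flow. Mfap5, a microfibril protein on the fibroblast list, was at 841, 794 and 712 FPKM in the high-flow pools, 542, 409 and 417 in the sham pools and 38.8, 38.7 and 125 in the low-flow pools (DESeq2 adjusted p = 0.0051, 0.0051 to 0.712 over the alternatives). Of the 10 fibroblast markers 8 had a log2 fold change above 0, with a median of 0.29 that was 0.69 without high-flow pool a and 0.06 without high-flow pool c, and Mfap5 alone lay wholly above sham (4.29% over all genes). The list, of which Mfap5 was the larger part in each high-flow and sham pool, summed to 968, 1134 and 1104 FPKM at high flow and 758, 692 and 652 in sham, and its defining genes Dcn, at 48.7, 184 and 195 against 91.5, 129 and 98.1 FPKM, and Fbln1, at 1.46, 3.42 and 3.43 against 1.77, 1.84 and 1.98, overlapped through high-flow pool a. Klk8, a neighbour in the kallikrein family, was at 318, 253 and 255 FPKM at high flow, 188, 179 and 132 in sham and 13.5, 14.5 and 39.6 at low flow (DESeq2 adjusted p = 0.0165, 0.0165 to 0.712). Pthlh, which encodes parathyroid hormone-related protein, a dilator of vessels, was at 159, 113 and 158 FPKM at high flow, 88.5, 90.6 and 83.2 in sham and 3.01, 3.29 and 10.6 at low flow (DESeq2 adjusted p = 0.0226, 0.0226 to 0.72). Slc9a3r2, a scaffold of membrane transporters, was at 284, 271 and 331 FPKM at high flow, 208, 212 and 167 in sham and 23.1, 24.9 and 40.8 at low flow (DESeq2 adjusted p = 0.0165, 0.0165 to 0.737). In Mfap5, Klk8, Pthlh and Slc9a3r2 the high-flow pools lay above the sham pools and the sham pools above the low-flow pools, with edgeR adjusted p of 0.324, 0.324, 0.324 and 0.329 against sham.

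Of the lists with members tested, the fat cell lists had the highest medians above sham. Brown fat markers summed to 129, 304 and 1505 FPKM in the high-flow pools and 24.3, 9.28 and 53.2 in the sham pools, with high-flow pool c the highest. Of 9 tested, 6 lay wholly above sham in FPKM (4.29% over all genes) and 6 on the TMM scale (6.27%), and the median log2 fold change was 4.23, or 2.70 without high-flow pool c. Ucp1, the uncoupling protein that defines brown fat, was at 17.5, 57.8 and 489.7 against 2.05, 0.164 and 11.1 FPKM (5.35 ± 1.32, edgeR adjusted p = 0.324, 3.06 without high-flow pool c), and Cidea at 34.1, 72.6 and 389.7 against 2.09, 0.241 and 13.7. The detoxifying enzyme Cyp2b10 was at 1.36, 4.27 and 15.4 against 0.137, 0 and 0.237 FPKM, from 176 counts against 3 (DESeq2 adjusted p = 0.000307, 0.000307 to 0.619 over 9 alternatives, since the gene fell below edgeR's filter without high-flow pool b or c). Adipoq, the fat hormone adiponectin, was at 17, 26.1 and 128 against 4.36, 1.36 and 10.3 FPKM. White and shared fat markers summed to 224, 389 and 1020.4 FPKM against 171, 165 and 204, and of 8 tested 3 lay wholly above sham in FPKM and 4 on the TMM scale.

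Of 11 fatty acid uptake genes tested 5 had a log2 fold change above 0 and 6 below, with a median of -0.01 that was 0.55 without sham pool c, and 2, Fabp4 and Lpl, lay wholly above sham in FPKM (4.29% over all genes), and 2 genes of the list on the TMM scale (6.27%). Fabp4, a fatty acid carrier of fat cells and of endothelium, was at 405, 898 and 3094 FPKM in the high-flow and 133, 36.1 and 389.7 in the sham pools, and the lipase Lpl at 5.71, 19.2 and 108 against 2.31, 2.46 and 5.25. Fabp3, a carrier of heart and brown fat, was at 27.0, 25.5 and 118 against 1.91, 2.48 and 6.60 FPKM (3.92 ± 0.72, edgeR adjusted p = 0.31, 0.00901 to 0.712, and 2.85 without high-flow pool c), and Pck1, of glycerol and glucose synthesis, at 5.03, 15.5 and 29.7 against 0.288, 0.0995 and 2.32. Gpihbp1, which anchors Lpl on capillary endothelium, had 71 counts in the high-flow pools and 1 in the sham pools and was too low for edgeR's filter (DESeq2 adjusted p = 0.0114). Cmbl, a hydrolase, was at 3.40, 4.39 and 7.86 against 1.59, 0.823 and 0.913 FPKM. Of 24 respiratory chain genes 9 lay wholly above sham in FPKM (4.29% over all genes) and 8 on the TMM scale (6.27%), with 0 below, and they had a median of 0.41, or 0.30 without high-flow pool c. Of the 9, Cox7a1 and Cox8b are also brown fat markers, and Cox7a1 was at 27.4, 56.0 and 199.7 against 5.32, 0 and 4.59 FPKM (adjusted p = 0.31, 0.0147 to 0.712). Ndufa1, a subunit of complex I found in all cells, was at 295, 248 and 319 against 186, 101 and 168 FPKM (0.97 ± 0.24, adjusted p = 0.324, 0.0274 to 0.72), and Cox7b at 119, 116 and 176 against 99.3, 59.7 and 99.2. Chchd10, of mitochondria, was at 0.876, 12.9 and 12.9 against 0, 0.306 and 0.509 FPKM and was called by DESeq2 from 113 counts against 3. Myl1, a myosin light chain of skeletal muscle, was at 20.9, 1.95 and 11.1 against 0.352, 1.10 and 0.609 FPKM and was called by DESeq2 from 102 counts against 6, where high-flow pool a also had the highest sum of skeletal muscle markers, 56.6 FPKM against 3.04 to 5.50 in the other 5 pools. The part of fat around the vessel in these values was not tested.

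**Figure D5:**
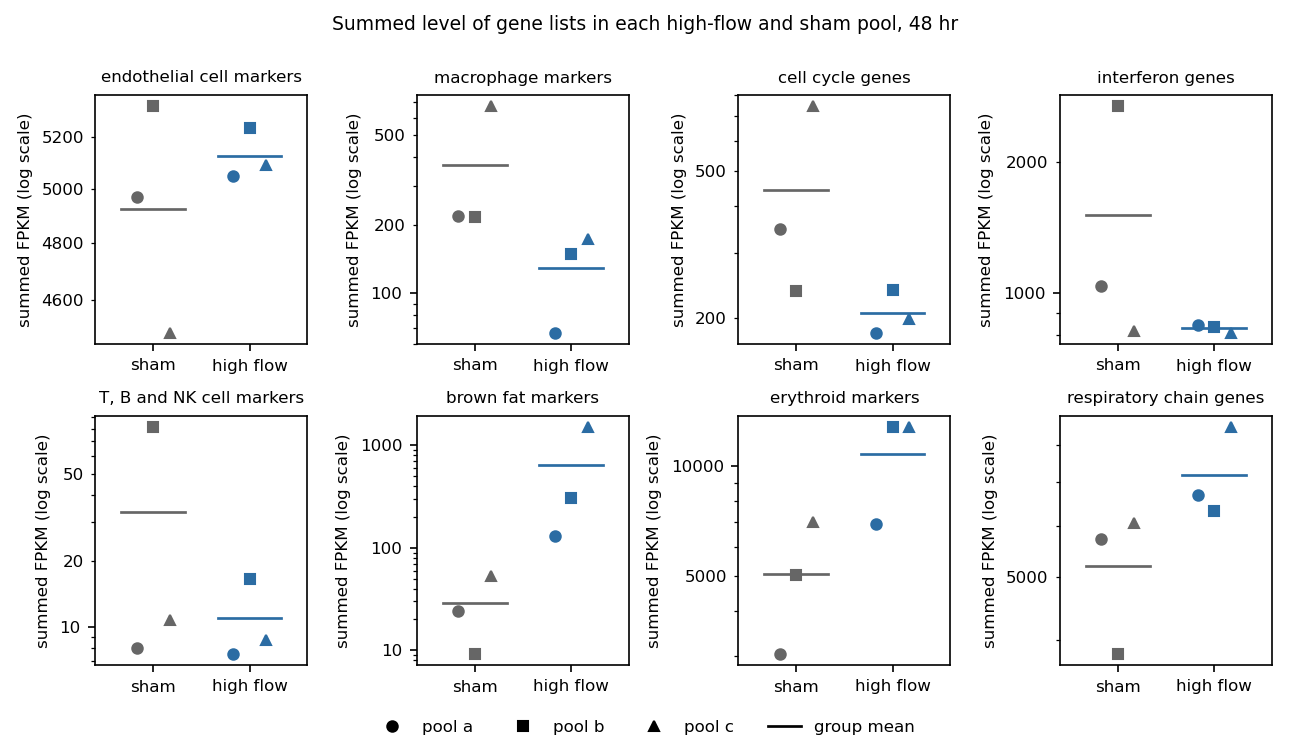
Summed FPKM on a log axis of 8 gene lists in each sham and high-flow pool (points, shaped by pool letter) with the group mean (line). Endothelial sums stay between 4487 and 5320 FPKM, brown fat sums run from 9.28 in sham pool b to 1505 in high-flow pool c, and sham pools b and c stand apart in different lists.

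Red cell genes were higher at high flow, 4 of 5 tested at an unadjusted p under 0.05 by edgeR, where 3.54% of all genes were higher at that p. The alpha-globin Hba-a1 was at 849, 1287 and 978 FPKM in the high-flow pools and 390.2, 550.4 and 601 in the sham pools, without overlap (1.06 ± 0.22, edgeR adjusted p = 0.31, 0.00259 to 0.712 over the alternatives). Its near-identical copy Hba-a2 was at 3649, 6639 and 7140.2 against 1561, 2466 and 3816 FPKM, where high-flow pool a lay below sham pool c, and Alas2, the first enzyme of heme synthesis in red cells, at 22.5, 41.7 and 41.4 against 11.4, 30.0 and 22.1. Reads of the globin copies may be divided wrongly between them. For platelet markers 0 of 7 tested had an unadjusted p under 0.05 by edgeR, with Pf4 at 11.6, 35.5 and 38.7 against 32.5, 19.4 and 75.1 FPKM and a list median of 0.12.

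For the remaining lists, counts of genes that lay wholly above or below sham are in FPKM where no scale is named, beside 4.29% above and 8.52% below over all genes, and 6.27% and 6.35% on the TMM scale. Of 16 circadian clock genes tested 0 were free of overlap in FPKM and 1 on the TMM scale (median 0.08). Of 12 YAP/TAZ target genes 2 lay wholly below sham and 0 above, or 2 and 1 on the TMM scale (median 0.08), among them Wwtr1, which encodes TAZ itself, at 13.5, 16.5 and 13.7 against 19.5, 17.5 and 29.5 FPKM. Cholesterol synthesis genes lay below sham in 4 of 15 in FPKM and in 2 on the TMM scale (median -0.22), among them Sqle, at 0.451, 1.01 and 0.338 against 1.37, 1.42 and 2.60 FPKM. Of 17 glycolysis genes 1 lay above and 1 below, or 1 and 0 on the TMM scale (median -0.04), of 19 heat shock and ER chaperone genes 2 above and 3 below in FPKM but 3 above and 0 below on the TMM scale (-0.18), and of 14 NRF2 antioxidant genes 1 above and 0 below, or 3 and 0 on the TMM scale (0.14). The small heat shock protein Hspb1 was at 19.8, 51.2 and 25.3 against 17.2, 15.2 and 16.7 FPKM (1.02 ± 0.32, edgeR adjusted p = 0.385), and superoxide dismutase Sod2 at 26.5, 28.6 and 45 against 25.1, 21.6 and 23.6 (0.56 ± 0.21, adjusted p = 0.511). Of 18 matrix genes 4 lay wholly below and 0 above, or 3 and 1 on the TMM scale (median -0.19), of 17 BMP and TGF-beta genes 3 below and 1 above, or 2 and 1 on the TMM scale (-0.07), and of 10 acute phase genes 0 either way (0.11). The acute phase genes summed to 119, 169 and 1121 FPKM in the high-flow and 108, 109 and 164 in the sham pools, and high-flow pool c stood apart through Hp, which encodes haptoglobin, at 34.0, 60.1 and 988 against 13.6, 4.71 and 60.5 FPKM, with a log2 fold change of 3.76 ± 1.29 (SE, edgeR adjusted p = 0.456) that was 0.86 without that pool. Among the markers of other cells, Lyve1 of lymphatic and some other endothelium was at 27.0, 32.0 and 26.9 against 18.4, 24.5 and 18.0 FPKM (0.55 ± 0.16, edgeR adjusted p = 0.362) while Prox1, which defines lymphatics, did not pass 0.308 FPKM. Of 4 nerve and Schwann cell markers tested 2 had a log2 fold change above 0 and 2 below (median -0.37). Ncam1, an adhesion molecule of nerve and other cells, was at 89.9, 77.4 and 76.3 against 63.6, 54.6 and 47.9 FPKM (0.61 ± 0.18, adjusted p = 0.362), and Gap43, a protein of growing axons, at 2.64, 2.84 and 2.67 against 12.1, 1.06 and 29.7 (-2.38 ± 0.83, adjusted p = 0.456). edgeR called Gap43 lower without sham pool b, and without sham pool c its log2 fold change was -1.21 (adjusted p = 0.904) and the list's median 0.05. Smooth muscle markers had a median of 0.03 over 9 genes, with Acta2 at 198, 213 and 188 against 279, 152 and 693 FPKM. Neutrophil markers summed to 23.7, 39.5 and 18.1 FPKM in the high-flow and 30.8, 27.2 and 86.7 in the sham pools.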

How the data were processed

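Expected counts per gene, deposited by the authors as a table of 21674 named genes on mouse build mm9, were read for the 9 untreated pools at 48 hr. The submitters' processing notes name STAR 2.5.1b and RSEM 1.2.15. The study names STAR for its gene-level comparison of flow, and its methods name TopHat for the mapping of these pools. Poly(A) RNA was amplified by a Clontech SMARTer kit, and the methods describe 80 bp reads and a re-sequencing with 100 bp reads. The columns used are named for 100 bp reads, of which the table holds 2 runs per pool, headed technical replicates 1 and 2. Replicate 1 was used. A further 195 columns of values were not used, and 1 entry with no name or values was left out. Columns were matched to groups by name; they carry letters, not the replicate numbers of the labels.

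Counts (6.27% to 19.32% of them not whole) were rounded and fitted in edgeR 4.0.16 with R 4.3.3 by the quasi-likelihood test over the 3 high-flow and 3 sham pools, after edgeR's default filter on low counts and TMM scaling, with Benjamini-Hochberg adjustment over 11030 genes and a threshold of 0.05. The fit had a biological coefficient of variation of 21.4%. Alternatives were DESeq2 1.42.0, limma-voom (limma 3.58.1), size factors by RLE, no filter, all 9 pools and each pool left out. DESeq2 with a pool left out, and TMM-scaled counts in the test of overlap, were added after seeing the data. FPKM was computed from counts, the effective length and the total count of a pool. On simulated counts with 100 genes changed by log2 of 1 and 100 by log2 of 2 between high flow and sham, edgeR called 59 and 100 of these and 6 others among 11167 genes, and DESeq2 59 and 97 and 8 others. The simulation gave all genes the same dispersion and had no pool that stood apart. It therefore checks that the fits run correctly and does not measure how many real changes these pools could show.

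Named genes were those of the flow list, the 10 in each direction with the smallest edgeR p without overlap, the 5 in each direction with the largest change among those called by DESeq2 without overlap, and up to 4 of each list with the smallest p. A few genes that this rule names are not reported here. Members and lists were chosen with earlier results of these data known. The study describes the low-flow and high-flow pools as biological triplicates and the labels call the sham pools replicates, and p-values measure the spread between pools. The depth of 4064477 to 6091233 limits genes of few counts most.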

Additional observations from a re-analysis of the deposited data

How the results depend on the processing

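The number of genes called between high flow and sham was 0 with edgeR, limma-voom, RLE size factors and all 9 pools in 1 fit. It was 101 with DESeq2 and 63 with edgeR without a filter on low counts. With a pool left out it ran from 0 to 78 with edgeR, where 78 came without sham pool b, and with DESeq2 it was 64, 31 and 23 without high-flow pools a, b and c and 61, 243 and 24 without sham pools a, b and c. At an unadjusted p under 0.05 edgeR counted 868. The cause of these differences was not tested. Under DESeq2, 82 of the 101 had an absolute log2 fold change of at least 1.

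Of 164 named genes with alternatives, 11 turned sign under at least 1 of them, none of the 26 chosen for their small p or large change. Those 26 were also chosen for groups without overlap in these same pools. Their constant sign follows largely from that choice and is no separate support for them. Groups did not overlap for 1413 genes in FPKM (473 higher, 940 lower) and for 1392 with TMM-scaled counts (692 higher, 700 lower). Fits to technical replicate 2 of the 100 bp runs and to the sum of both are not reported here, since all these columns name a group and not a single sample and 1 column a pool was kept. No paired analysis was possible because the columns of the count table carry letters in place of the replicate numbers of the labels, and sham pools come from other mice. With 3 pools a group, fold changes of genes with at most 10 counts in either group rest on these few counts. Among such genes are Cxcl10, Cox7a1, Cyp2b10, Gpihbp1, Chchd10, Myl1, Inpp4b, Bard1 and Disp2, for which no fold change is given.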
